A study of Mus musculus with 8 samples.

Results

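The genes described here encode subunits of CatSper, the calcium channel of the sperm tail, and the sperm potassium channel SLO3. They were chosen by gene symbol and are *Catsper1*, *Catsper2*, *Catsper3*, *Catsper4*, *Catsperb*, *Catsperg1*, *Catsperg2* and *Kcnu1*, which makes 8 of the 23343 genes in the RNA-seq tables. All 8 passed the filter on low counts that kept 14647 genes. RNA-seq was performed on pachytene spermatocytes (PS), which are in meiotic prophase, and round spermatids (RS), the haploid cells that follow meiosis. Both came from the testes of adult C57BL/6 mice labelled Rnf8- and Scml2-dKO, that is, lacking the ubiquitin ligase RNF8 and the germline Polycomb protein SCML2 (*Rnf8;Scml2*-dKO). H3K27ac, a histone mark of active promoters and enhancers, was measured by ChIP-seq in PS and RS of adult wild-type C57BL/6 mice. Each of the 4 groups had 2 replicates. Both germ cell types were enriched by sedimentation through BSA, and for the RNA each purification started from the testes of a single dKO mouse. RNA and H3K27ac therefore come from different genotypes, wild-type RNA was not analysed here, and no value below is a comparison of genotypes.

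CatSper is a voltage-gated and alkaline-sensitive calcium channel found in sperm. Its pore is built from the products of *Catsper1*, *Catsper2*, *Catsper3* and *Catsper4*, which are different genes, and a set of auxiliary proteins, among them CATSPERB and CATSPERG, forms the large extracellular part of the complex. Calcium entry through CatSper drives the hyperactivated swimming of sperm, and loss of each pore subunit makes male mice infertile. *Kcnu1* encodes SLO3, a potassium channel that is not a CatSper subunit but sets the membrane voltage of sperm together with LRRC52. The 8 genes lie on 7 chromosomes, and *Catsperg1* and *Catsperg2* are related copies on chromosome 7.

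Promoter sequences are shown for the genes with the strongest start-site H3K27ac in PS (*Catsper2*, *Catsperb*) and in RS (*Catsper4*), which have unlike base composition. RefSeq promoter entries (GRCm38.p6, the build also called mm10) with the start site of the deposited tables were found for 5 of the 8 genes, *Catsper2*, *Catsper3*, *Catsper4*, *Catsperb* and *Catsperg1*. The 250 bases before the start are printed 5′ to 3′ along the gene's strand. The *Catsper2* window (chr2:121413793-121414042, minus strand) is shared with the neighbouring gene *Pdia3*, and CG dinucleotides are in capitals. The *Catsperb* window (chr12:101404423-101404672, plus strand) and the *Catsper4* window (chr4:134227384-134227633, minus strand) have in capitals each match on either strand to CNGTT, the core sequence bound by MYB proteins.
*Catsper2*: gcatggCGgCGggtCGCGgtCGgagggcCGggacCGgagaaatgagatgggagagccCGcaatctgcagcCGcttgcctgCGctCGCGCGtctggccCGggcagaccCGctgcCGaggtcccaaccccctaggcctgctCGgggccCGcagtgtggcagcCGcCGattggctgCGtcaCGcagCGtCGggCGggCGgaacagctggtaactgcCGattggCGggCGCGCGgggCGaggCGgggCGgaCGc
*Catsperb*: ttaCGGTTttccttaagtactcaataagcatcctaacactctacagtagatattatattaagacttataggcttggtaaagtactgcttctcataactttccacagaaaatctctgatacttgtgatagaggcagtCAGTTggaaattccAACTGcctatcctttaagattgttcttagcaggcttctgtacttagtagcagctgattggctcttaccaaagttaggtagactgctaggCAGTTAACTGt
*Catsper4*: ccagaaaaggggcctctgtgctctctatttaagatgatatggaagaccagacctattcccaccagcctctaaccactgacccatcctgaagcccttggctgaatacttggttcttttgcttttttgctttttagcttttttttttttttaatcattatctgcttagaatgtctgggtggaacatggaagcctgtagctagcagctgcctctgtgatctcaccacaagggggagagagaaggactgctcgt

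The *Catsper2* window held 35 CG dinucleotides and 74.8% G and C, against medians of 6 and 52.4% over the 32851 RefSeq promoter entries of the same length. The *Catsperb* and *Catsper4* windows each held 1 CG, and their G and C contents were 38.0% and 45.2%. *Catsper3* was also CG-poor, with 2. The *Catsperb* window held 5 matches to CNGTT, of which the last 2 adjoin as a palindrome, and 2.4% of all entries held at least as many. *Catsper2* and *Catsperg1* each held 2, as many as or fewer than 42.0% of all entries. At least 1 match was present in 74.2% of all entries, and neither *Catsper4* nor *Catsper3* held any. The *Catsperg1* window (30 bases at chr7:29214034-29214063, minus strand, are shown because they hold a rare match) ended with gggaaaattcgcGTTACCATGGAAACgcgc, in which the capitals match the palindromic X-box (searched on both strands) bound by RFX factors, the regulators of ciliary genes. The match began 18 bases before the start site and was found in 0.11% of all entries. These matches describe the letters only, and binding of any factor was not measured.

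The RNA libraries held 9655405 to 12289694 reads on genes. All 10 round spermatid markers were higher in RS, and 4 of 10 spermatocyte markers were lower in RS while 2 were higher. Markers of Leydig cells, the steroid-producing cells of the testis, were higher in PS for all 6 genes, with summed RPKM of 729 and 547 in PS and 68.3 and 42.6 in RS. The summed level of 8 Sertoli cell markers was 63.8 and 29.4 in PS and 33.9 and 19.0 in RS, of which *Clu* made up 57.9, 27.04, 28.1 and 14.5. Of the 5 Sertoli markers tested, 2 (*Wt1* and *Rhox5*) were called higher in RS and none lower. The summed level of 5 blood cell markers was 0.54 and 0.79 in PS and 5.88 and 5.18 in RS, with the 3 tested (*Ptprc*, *Cd68* and *Emr1*) called higher in RS and both haemoglobin genes at 0. Reads that a gene shares with a copy were not counted, so these 0 values do not show that haemoglobin RNA was absent. Of 7 markers of spermatogonia 3 were called higher in RS, of 4 peritubular markers 1 was, and none of either list was called lower. Over all genes tested, 30.4% were called higher and 27.6% lower. The part of these other cells in the differences below was not tested. *Rnf8* had 93 and 110 reads in PS and 61 and 50 in RS, and *Scml2* had 40 and 92 in PS and 44 and 98 in RS, with no wild-type library here against which to read the deletion. The ChIP-seq lists held 41095 to 74919 peaks a sample, the most in RS replicate 1.

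The first question was which subunits had more RNA in RS than in PS. The genes of 3 pore subunits and *Kcnu1* rose between 6.2-fold and 7.37-fold, whereas the gene of the remaining pore subunit, *Catsper2*, was already abundant in PS and was not called. No auxiliary subunit gene among the 8 was called higher, and *Catsperg2* was called lower. Changes were tested with edgeR's quasi-likelihood test on read counts, and a gene was called at a Benjamini-Hochberg adjusted p under 0.05 over all genes tested together with a change of at least 1.5-fold. By this rule 4 of the 8 genes were called higher in RS, where 30.4% of all genes were, and 1 was called lower, where 27.6% of all genes were. The median log2 fold change (RS over PS) was 1.41 over the 8 genes and 0.0090 over all genes tested. All 4 of the higher genes changed by more than 4-fold, a size reached by 15.6% of all genes. In bulk RNA of this kind, fewer cells of a type and less RNA per cell cannot be told apart, and the p-values measure only the spread between these libraries.

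*Catsper1* (chr19:5335741-5344153, plus strand) encodes the pore subunit with the histidine-rich tail thought to sense pH. Its level was 7.28 and 11.4 RPKM (reads scaled to transcript length and to library size) in PS replicates 1 and 2, and 67.3 and 66.9 RPKM in RS replicates 1 and 2. Both RS libraries were far above both PS libraries, an order that this gene, *Catsper3*, *Catsper4* and *Kcnu1* shared with 40.9% of all genes. The log2 fold change was 2.88 ± 0.22 (SE; adjusted p = 1.13e-05, edgeR). Among the genes tested, its RPKM moved from percentiles 55.2 and 63.7 in PS to 90.0 and 90.2 in RS.

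*Catsper3* (chr13:55784579-55809000, plus strand) and *Catsper4* (chr4:134211968-134227383, minus strand), which encode pore subunits that the assembled channel also requires, had nearly the same profile as *Catsper1*. *Catsper3* stood at 9.17 and 12.7 RPKM in PS and 75.5 and 71.8 RPKM in RS, a log2 fold change of 2.85 ± 0.18 (SE; adjusted p = 6.07e-06, edgeR). *Catsper4* stood at 9.20 and 13.3 RPKM in PS and 83.0 and 69.7 RPKM in RS, a log2 fold change of 2.81 ± 0.21 (SE; adjusted p = 1.03e-05, edgeR). In neither gene did the groups overlap. Within each library the highest of *Catsper1*, *Catsper3* and *Catsper4* was at most 1.26 times the lowest.

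*Catsper2* (chr2:121394355-121413792, minus strand), the gene of the fourth pore subunit, was the most abundant of the 8 in every library. Its level was 130.2 and 162.7 RPKM in PS and 155.3 and 170.7 RPKM in RS. The groups overlapped, with RS replicate 1 below PS replicate 2. The log2 fold change was 0.19 ± 0.15 (SE), and the gene was not called (adjusted p = 0.274, edgeR). *Catsper2* thus made up 83.5% and 81.3% of the summed RPKM of the 4 pore genes in PS and 40.8% and 45.0% in RS. It exceeded the next most abundant pore gene by 14.2 and 12.3 times in PS, and by 1.87 and 2.38 times in RS.

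*Kcnu1* (chr8:25849623-25937934, plus strand) followed the 3 rising pore genes. It stood at 7.41 and 8.26 RPKM in PS and 48.2 and 46.3 RPKM in RS. The replicates lay close together and the groups were well separated. The log2 fold change was 2.63 ± 0.14 (SE; adjusted p = 3.71e-06, edgeR).

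None of the auxiliary subunit genes was called higher. *Catsperb* (chr12:101404673-101626009, plus strand), which encodes the beta subunit, had 34.6 and 29.1 RPKM in PS and 20.2 and 24.3 RPKM in RS. Both RS values were below both PS values, as they were for 42.7% of all genes. The log2 fold change of -0.48 ± 0.15 (SE) had an adjusted p of 0.0189 (edgeR) but was smaller than 1.5-fold, so the gene was not called. Over the alternatives run its adjusted p reached 0.318.

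*Catsperg1* (chr7:29181532-29214033, minus strand) and *Catsperg2* (chr7:29697219-29727015, minus strand) both encode a gamma subunit. Only reads that aligned to 1 place were kept by the authors, so reads that the 2 copies share were not counted and both levels are uncertain. *Catsperg1* had 19.3 and 45.2 RPKM in PS and 25.5 and 32.4 RPKM in RS. The PS replicates were the farthest apart of the 8 genes, at 2.34-fold, and enclosed both RS values. Its log2 fold change was -0.13 ± 0.34 (SE; adjusted p = 0.760, edgeR). This value rests on single libraries: it was -0.65 without PS replicate 1 (adjusted p = 0.0026), 0.67 without PS replicate 2 (adjusted p = 0.0041) and 0.13 without RS replicate 1 (adjusted p = 0.797).

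*Catsperg2* had 40.4 and 73.4 RPKM in PS and 30.6 and 37.1 RPKM in RS. Both PS values were above both RS values, although PS replicate 1 was close to RS replicate 2. The log2 fold change was -0.72 ± 0.26 (SE; adjusted p = 0.0378, edgeR), and this was the 1 gene called lower. The call was lost without PS replicate 2 (log2 fold change -0.17, adjusted p = 0.366), without RS replicate 1 (-0.50, adjusted p = 0.189) and without RS replicate 2 (-0.76, adjusted p = 0.0758), and under limma (-0.68, adjusted p = 0.0524). In both stages *Catsperg2* was above *Catsperg1* in every library, by 2.09 and 1.63 times in PS and by 1.20 and 1.14 times in RS.

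The order of the 8 genes therefore differed between the stages. In PS the order of mean RPKM was *Catsper2*, *Catsperg2*, *Catsperg1*, *Catsperb*, *Catsper4*, *Catsper3*, *Catsper1* and *Kcnu1*. *Catsper2* stood apart, the replicates of *Catsperg2*, *Catsperg1* and *Catsperb* overlapped from neighbour to neighbour, and so did those of the last 4 genes, which lay within 7.28 to 13.3 RPKM. In RS it was *Catsper2*, *Catsper4*, *Catsper3*, *Catsper1*, *Kcnu1*, *Catsperg2*, *Catsperg1* and *Catsperb*. There *Catsper4* and *Catsper3* overlapped, as did *Catsperg2* and *Catsperg1*. The plot of RPKM by library shows this reordering.

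**Figure D1:**
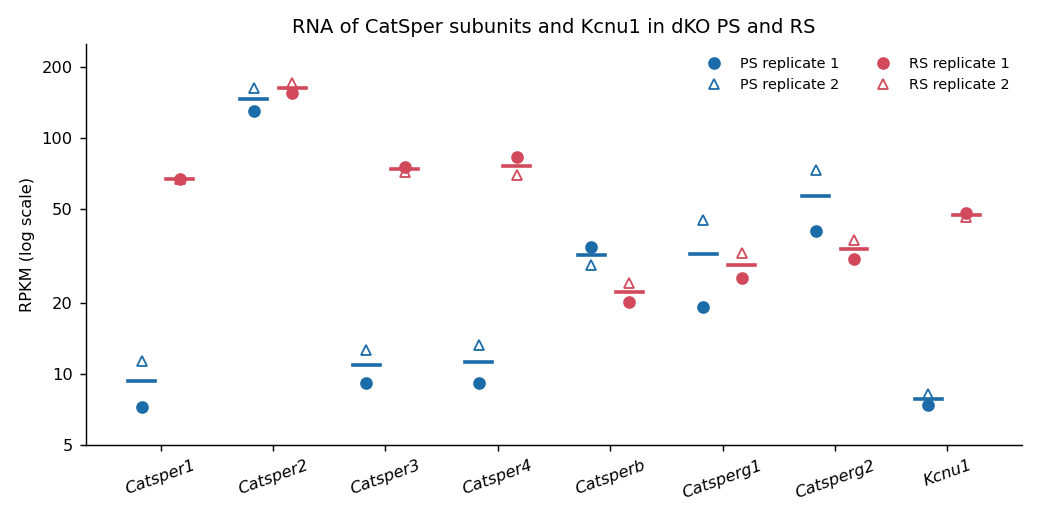
RPKM (vertical log axis) of the 8 genes in *Rnf8;Scml2*-dKO PS (blue) and RS (red); circles are replicate 1, triangles replicate 2 and bars the mean. *Catsper1*, *Catsper3*, *Catsper4* and *Kcnu1* lie at 7.28 to 13.3 RPKM in PS and at 46.3 to 83.0 RPKM in RS, while *Catsper2* is above 130 RPKM in all 4 libraries.

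Further proteins of the complex were examined as a fixed list of 10, of which 6 were in the tables and passed the filter. Of these, 1 was higher in RS, 1 was lower and 4 were not called. Over all genes, 30.4% were higher and 27.6% were lower. *Efcab9*, whose product is a calcium-binding partner of the channel, had 22.7 and 22.2 RPKM in PS and 183.4 and 135.5 RPKM in RS, a log2 fold change of 2.87 ± 0.19 (SE). *Catsperd*, the delta subunit gene, had 67.6 and 99.5 RPKM in PS and 55.3 and 50.1 RPKM in RS, a log2 fold change of -0.63 ± 0.19 (SE). The most abundant was *Catsperz*, listed as *Tex40*, at 562 and 596 RPKM in PS and 465 and 401 RPKM in RS. Its log2 fold change of -0.38 was below the fold threshold. *Lrrc52*, which encodes the partner of SLO3, was higher in RS like *Kcnu1*, from 3.70 and 5.54 RPKM in PS to 35.7 and 32.2 RPKM in RS, a log2 fold change of 2.91 ± 0.24 (SE).

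**Figure D2:**
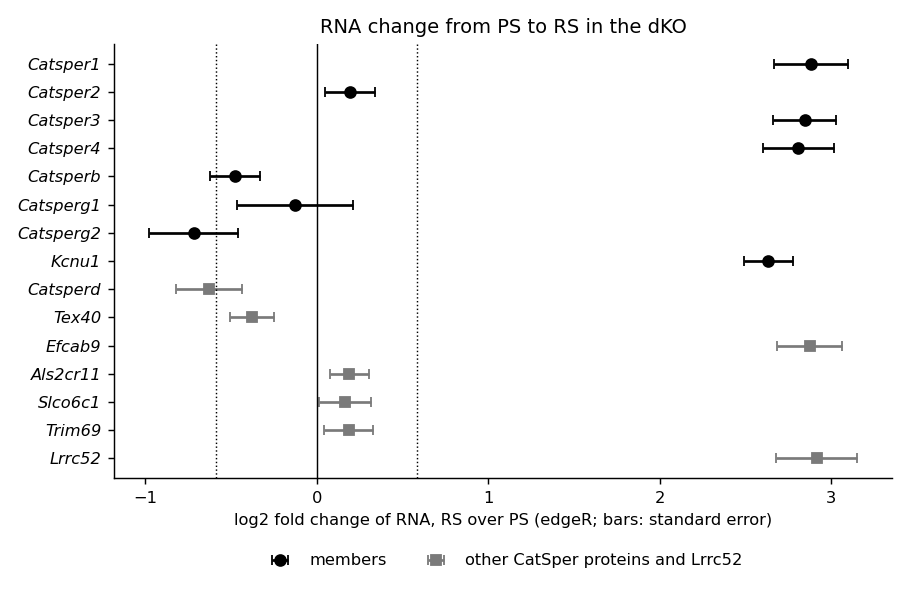
Log2 fold change of RNA, RS over PS (horizontal axis, edgeR, bars are standard errors), for the 8 genes (black) and for other CatSper proteins and *Lrrc52* (grey); dotted lines mark 1.5-fold. *Catsper1*, *Catsper3*, *Catsper4*, *Kcnu1*, *Efcab9* and *Lrrc52* lie between 2.63 and 2.91, and the other genes lie at 0.19 or below.

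Other genes of sperm ion transport moved in both directions. Of 7 measured, 3 were higher in RS and 2 were lower, where 30.4% and 27.6% of all genes were. *Atp1a4*, the sodium pump subunit of sperm, had 23.8 and 31.4 RPKM in PS and 327 and 281 RPKM in RS, a log2 fold change of 3.50. *Abhd2*, a hydrolase that responds to progesterone, rose by 2.00, and *Adcy10*, the bicarbonate-sensitive adenylyl cyclase, rose by 1.24 on the log2 scale. *Atp2b4*, a calcium pump, and *Hvcn1*, a proton channel, were lower, with log2 fold changes of -1.49 and -0.78. *Slc9c1*, the sperm-specific sodium/proton exchanger, was not called at 33.0 and 32.7 RPKM in PS and 31.2 and 29.3 RPKM in RS.

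Among the genes of somatic voltage-gated calcium channel pores, 9 passed the filter. Of these 9, 5 were higher in RS and 2 were lower, where 30.4% and 27.6% of all genes were. The higher genes, *Cacna1a*, *Cacna1b*, *Cacna1c*, *Cacna1e* and *Cacna1s*, did not exceed 3.15 RPKM in any library. *Cacna1h*, a T-type channel gene, was the most abundant at 60.6 and 79.3 RPKM in PS and 37.4 and 43.8 RPKM in RS (log2 fold change -0.75), and *Cacna1i* was lower by a log2 fold change of -2.29. Of the other SLO and two-pore channel genes, 6 passed the filter. *Kcnma1*, which encodes the calcium-activated SLO1 channel, was higher in RS (log2 fold change 0.83) at no more than 2.18 RPKM. *Kcnmb4*, an accessory subunit gene of SLO1, was lower, from 64.9 and 67.7 RPKM in PS to 33.9 and 32.4 RPKM in RS (log2 fold change -0.96).

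The second question was whether the start sites of these genes carried H3K27ac in wild-type PS and RS, and whether its level differed. The level was taken as the highest fold enrichment over background of any peak within 2 kb of the start site, and as 0 where no peak was present. A peak was present in both PS replicates at all 8 genes and in both RS replicates at 7 of 8, where 81.0% and 75.8% of all genes passing the RNA filter had 1. Both RS values were above both PS values at 3 genes (13.6% of all genes with a peak in at least 1 sample). Both were below at 3 genes (54.0% of the same genes), and the groups overlapped at 2. No test was made of these differences. With 2 samples a group, an exact permutation test cannot give a two-sided p below 0.333. Over the 11394 genes with a peak in all 4 samples, the median difference (RS minus PS) of log2(1 + fold enrichment) was -0.39, and the differences below include this shift.

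H3K27ac was higher in RS at the 3 pore genes whose RNA was higher in RS. At *Catsper4* the fold enrichment was 10.7 and 11.5 in PS and 28.9 and 27.9 in RS. At *Catsper1* it was 6.996 and 7.67 in PS and 17.5 and 15.1 in RS, and at *Catsper3* it was 6.58 and 7.13 in PS and 15.5 and 12.8 in RS. The groups were separated at each of the 3, by 2.56, 2.22 and 2.06 times between the mean levels. Among all genes with a start-site peak, *Catsper4* moved from percentiles 39.5 and 39.0 in PS to 93.2 and 96.8 in RS. Of the genes called higher in RS by RNA, 3582 had a start-site peak in at least 1 sample. Of these, 37.5% had both RS levels of H3K27ac above both PS levels and 28.4% had both below.

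The enrichment at *Catsper1* also reached along the gene. Peaks covered 28.6% and 36.6% of its length in PS and 95.2% and 67.4% in RS. A second region from 2.74 kb after the start (chr19:5338479-5344020, exons and introns) had a highest fold enrichment of 5.35 and 6.58 in PS and of 13.4 and 8.13 in RS. The RS values were above the PS values in this region as well. RS replicate 1, which gave the widest coverage, was also the library with the most peaks.

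At *Catsper2*, the CG-rich start site that *Pdia3* shares, fold enrichment was 32.9 and 31.8 in PS and 24.8 and 15.1 in RS. It was among the strongest start sites in PS, at percentiles 93.9 and 89.3, against 87.2 and 74.8 in RS. The fold enrichment was lower in both RS replicates. The 2 starts are 110 bp apart on opposite strands, so the peak cannot be given to either gene. *Pdia3*, which encodes a disulfide isomerase, had 212 and 192 RPKM in PS and 140.5 and 157 RPKM in RS, a log2 fold change of -0.40 that was below the fold threshold.

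*Catsperb* had the widest difference of the 8. Its fold enrichment was 26.8 and 35.6 in PS and 4.88 in RS replicate 1, and no peak lay within 2 kb in RS replicate 2. In PS a single peak of 1749 and 1612 bp covered the start, with its summit 309 and 349 bp before it, just upstream of the window printed above. In RS replicate 1 there were 4 short peaks within 2 kb, none of which covered the start. A peak in both PS replicates that was missing from at least 1 RS replicate was seen at 7.42% of all genes passing the RNA filter. Its RNA, in the dKO, was 1.39-fold lower in RS.

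*Catsperg2* was also lower in RS, at 19.8 and 16.4 in PS and 11.4 and 6.97 in RS, and both PS values were above both RS values. Of the genes called lower in RS by RNA, 3743 had a start-site peak in at least 1 sample. Of these, 72.5% had the same arrangement as *Catsperg2* and 2.94% the opposite. *Catsperg1* had 12.8 and 18.6 in PS and 15.9 and 10.4 in RS, and the groups overlapped.

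At *Kcnu1* the level within 2 kb was 12.3 and 16.99 in PS and 17.5 and 13.9 in RS, and the groups overlapped although its RNA was 6.2-fold higher in RS. The start of *Ash2l*, a gene of a histone methyltransferase complex on the opposite strand, lies 1953 bp away inside the same peaks. In PS the strongest summits were 2267 and 1962 bp before the *Kcnu1* start, on the side of *Ash2l*. Counting only summits within 1 kb of the *Kcnu1* start, a choice made after these positions were seen, the fold enrichment was 9.05 and 12.1 in PS and 15.5 and 13.9 in RS. On that count both RS values were above both PS values, but the share of all genes with this order was not computed for that count. The same choice left the arrangement of the other 7 genes as it was.

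**Figure D3:**
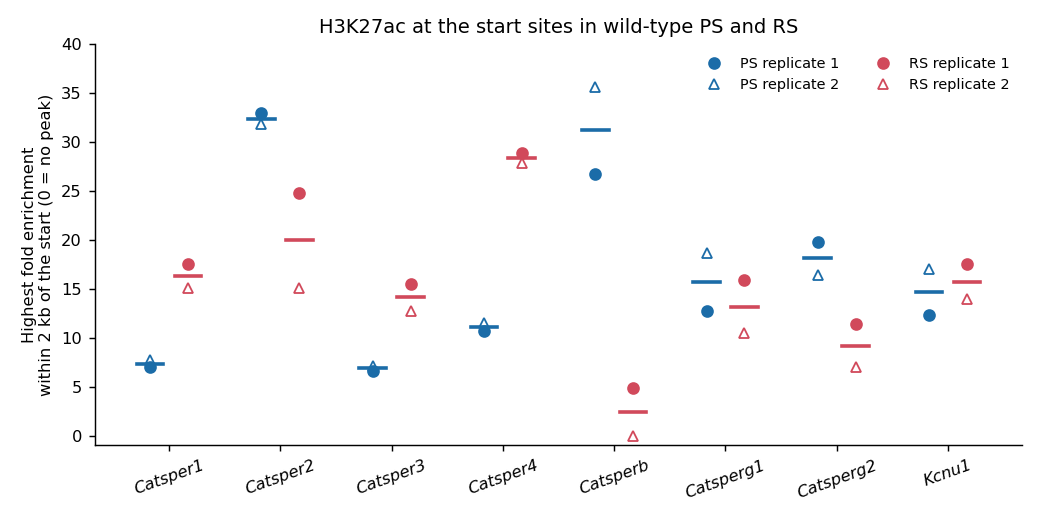
H3K27ac at the start sites of the 8 genes in wild-type PS (blue) and RS (red), as the highest fold enrichment within 2 kb; circles are replicate 1, triangles replicate 2, bars the mean, and 0 means no peak. *Catsper1*, *Catsper3* and *Catsper4* are higher in both RS replicates, and *Catsperb* falls from 26.8 and 35.6 in PS to 4.88 and 0 in RS.

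**Figure D4:**
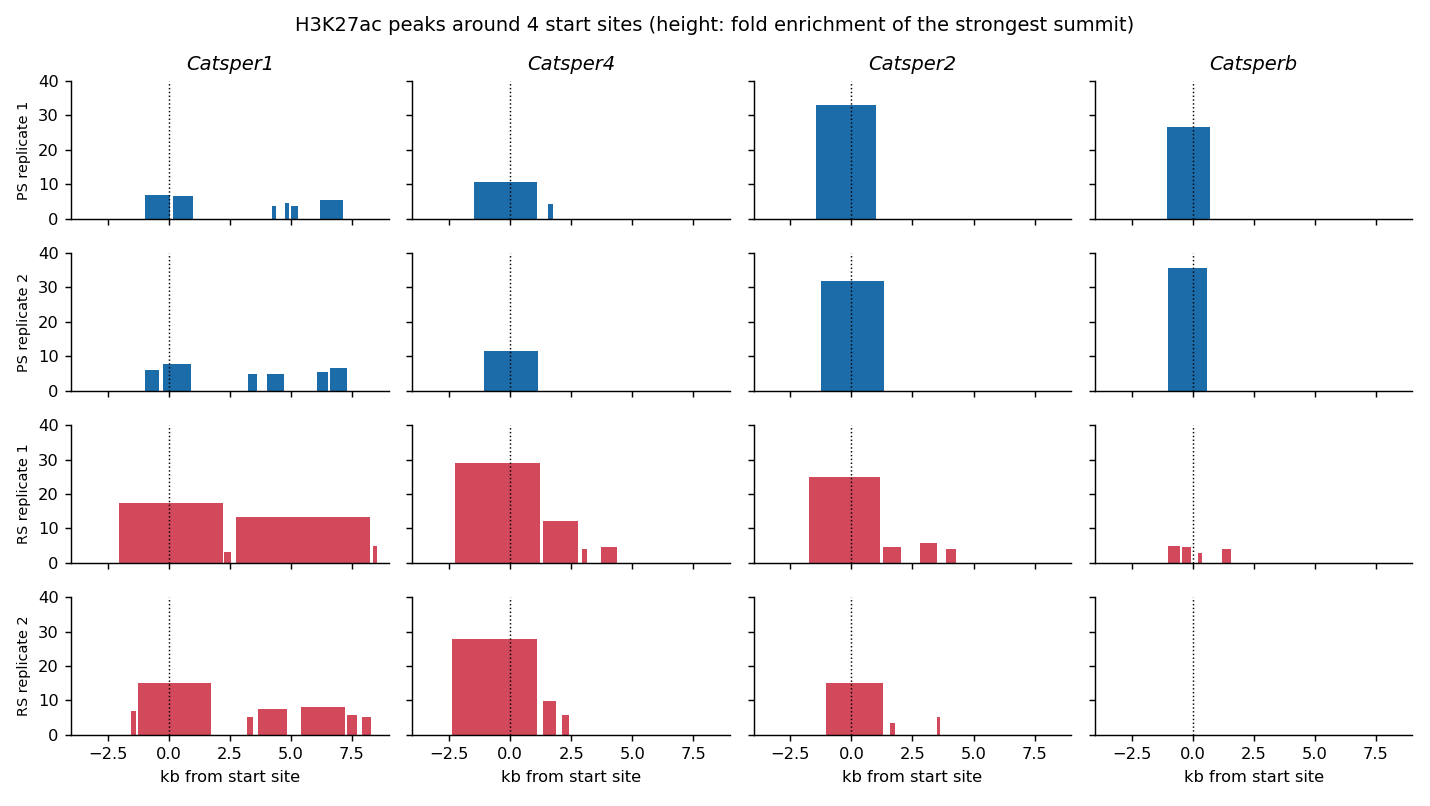
H3K27ac peaks around the start sites of *Catsper1*, *Catsper4*, *Catsper2* and *Catsperb* in each ChIP-seq sample (rows); the horizontal axis is the distance from the start in kb along the gene's strand, box width is the extent of a peak and box height the fold enrichment of its strongest summit. The *Catsperb* peak of PS gives way to short, low peaks in RS replicate 1 and to none in RS replicate 2, while the *Catsper4* peak is 28.9 and 27.9 high in RS.

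Most of the regions assigned to these genes were seen in a single sample. Peaks of the 4 samples merged into 58 regions, of which 47 lay over 2 kb from the start. Of these 47, 3 were present in all samples and 35 in a single sample, 29 of them in RS replicate 1. Both PS replicates and neither RS replicate had a peak in 3 of them, and the reverse held for 3. Of the first kind, the strongest was an intergenic region 234 kb from the *Catsperb* start (chr12:101169205-101170292), with fold enrichment of 13.2 and 10.4 in PS. A region 169 kb from *Catsperg2* (chr7:29554055-29558118) was present in all samples, at 6.58 and 10.4 in PS and 19.1 and 16.3 in RS. Such distant regions are assigned by the nearest gene and may belong to other genes.

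Set side by side, the RNA change in the dKO and the H3K27ac difference in wild-type had the same sign at 7 of the 8 genes. The exception was *Catsper2*, whose RNA change was not called and was -0.00033 without PS replicate 1. How many of all genes have the same sign was not counted. Neither the 7 of 8 nor the 5 given below can therefore be set against a background. Of the further complex genes, the signs were opposite at *Als2cr11*, *Trim69* and *Slco6c1*, with RNA changes of 0.19, 0.19 and 0.17 (none called). They were the same at *Catsperd*, *Tex40* and *Efcab9*. The start-site peaks of *Catsper2* and *Kcnu1* also take in the starts of *Pdia3* and *Ash2l*. Each H3K27ac difference includes the median shift of -0.39 given above. After its subtraction the difference at *Catsperg1* was 0.14, against an RNA change of -0.13. The H3K27ac differences (RS minus PS, log2(1 + fold enrichment)) were 1.05, 0.94 and 1.28 at *Catsper1*, *Catsper3* and *Catsper4*, and 0.10 at *Kcnu1*. They were -0.71 at *Catsper2*, -3.72 at *Catsperb*, -0.24 at *Catsperg1* and -0.94 at *Catsperg2*. Without RS replicate 2 the difference was -0.37 at *Catsper2*, -2.44 at *Catsperb* and -0.62 at *Catsperg2*. With peaks taken by the deposited gene assignment at any distance, it was -1.97 at *Catsperb* and -0.030 at *Catsperg2*. The signs at *Kcnu1* and *Catsperg1* are smaller than the spread between replicates and turn when single samples are left out, so 5 genes remain with a sign that does not. These points share neither animals nor genotype between the axes, and no correlation was computed.

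**Figure D5:**
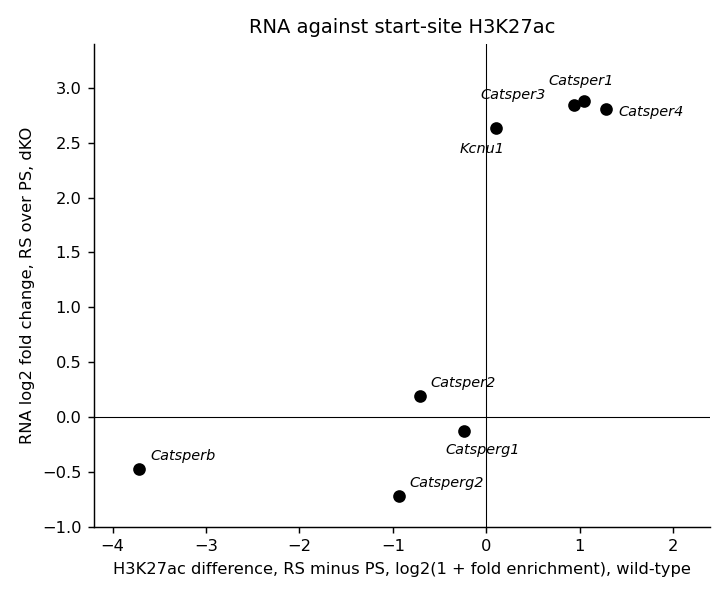
RNA log2 fold change, RS over PS, in the dKO (vertical axis) against the difference in start-site H3K27ac, RS minus PS, in wild-type cells (horizontal axis, log2(1 + fold enrichment)); each point is 1 gene. *Catsper1*, *Catsper3* and *Catsper4* lie together at the upper right, and *Catsperb* lies apart at -3.72 on the horizontal axis with an RNA change of -0.48.

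For each gene the nearest profile was sought among the genes passing the filter, as the smallest Euclidean distance over 8 samples of log2(RPKM + 1) and of log2(1 + fold enrichment). The nearest gene to *Catsper1* was *Catsper3*, at a distance of 0.49. Other genes were almost as near, with the 5th nearest at 0.60, and the median distance to all genes was 6.26. *Catsper3* itself was nearest to *Pdzk1ip1* (0.38), *Catsper4* to *Banf2* (0.41), *Catsper2* to *Tsnaxip1* (0.38) and *Kcnu1* to *Ppt1* (0.61). *Catsperg1* was nearest to *Alkbh3* (0.82) and *Catsperg2* to *Cep164* (0.67). *Catsperb* was nearest to *Slc9c1*, the sperm exchanger named above, at 0.99, the widest gap of the 8. *Slc9c1* had an H3K27ac fold enrichment of 22.6 and 21.9 in PS, of 4.88 in RS replicate 1 and no peak in RS replicate 2.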

How the data were processed

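H3K27ac ChIP-seq (wild-type) and RNA-seq (*Rnf8;Scml2*-dKO) of PS and RS were grouped by the sample labels, with 2 replicates each. The authors mapped ChIP-seq reads onto mm10 using Bowtie (1.1.1 in the submitters' processing notes). MACS2 (2.1.0.20140616 in those notes) was run per sample, and the study's methods name other versions of both. Each deposited peak list gives, per summit, a pileup signal, its fold enrichment ratio over 1 background value per sample and -log10 p and q values, none scaled between samples. Read totals of the ChIP-seq samples are not given in the sources used here. The background values were 0.72 to 1.46 fragments.

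For RNA-seq, the authors amplified total RNA without marking strand, aligned it with STAR (2.4.2a), kept reads that aligned to 1 place with at most 2 mismatches and divided them between RefSeq isoforms. The authors deposited the estimated counts of reads (estimated count values, not normalized, written as whole numbers) and RPKM. Rows were summed per gene. Genes reaching 10 counts in 2 or more samples were tested with edgeR (4.0.16, R 4.3.3, TMM, quasi-likelihood), with Benjamini-Hochberg adjustment. The fit was run on simulated data with 200 of 14647 genes changed by 1.5 on the log2 scale and 1 fixed dispersion (0.05). It recovered 158 of the changed genes, and 3.66% of its calls were false. In the real data 58.0% of genes were called, so the simulation does not give the error rate there. DESeq2 (1.42.0), limma (3.58.1) on log2(RPKM + 1), other filters, left-out replicates, a replicate block, and other peak windows and thresholds were alternatives.

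The genes, lists, motifs and windows were chosen with earlier results of these data known. Named genes were the 8 members, from each further list the genes called and the most abundant, *Rnf8*, *Scml2* and the nearest gene of each member. *Pdia3*, *Ash2l* and *Slc9c1* (named a second time for its profile) were added for their position or values. Promoter sequences are from RefSeq (GRCm38.p6).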

Additional observations from a re-analysis of the deposited data

How the results depend on the processing

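The count of genes higher in RS was 4 under 9 of the 10 alternatives run and 5 without PS replicate 2, where *Catsperg1* joined. The count lower in RS, 1 gene (*Catsperg2*), ranged from 0 to 2 when a replicate was left out, was 0 with limma and was 2 without the fold threshold, where *Catsperb* joined. The count of other CatSper and channel genes called lower (6) ranged from 3 to 7 as replicates were left out, falling to 3 without PS replicate 2 and without RS replicate 1. The log2 fold change of *Catsper2* was -0.00033 (adjusted p = 0.998) without PS replicate 1, and its range over left-out replicates was -0.00033 to 0.41. That of *Catsperg1* ranged from -0.65 to 0.67. The H3K27ac difference of *Catsperg1* ranged from -0.52 to 0.037 as replicates were left out and was 0.14 after subtraction of the median difference of all genes. That of *Kcnu1* ranged from -0.11 to 0.32. The subtraction, added after the data were seen, gave 1.44, 1.33 and 1.67 at *Catsper1*, *Catsper3* and *Catsper4*, 0.49 at *Kcnu1*, -0.32 at *Catsper2*, -0.55 at *Catsperg2* and -3.33 at *Catsperb*. By the deposited gene assignment, the difference was -0.030 at *Catsperg2* and -1.97 at *Catsperb*, and 8 of 8 genes had a peak in both RS replicates. Without RS replicate 2 it was -0.37 at *Catsper2*. The cause of these changes was not tested. Same-numbered PS and RS libraries are not tied to a mouse by the labels, and their deviations correlated at r = 0.22 over 14647 genes. With the replicate number as a block, 4 of the 8 genes were higher and 1 was lower, 4589 and 4134 of all genes were called higher and lower, and *Catsperg2* had a log2 fold change of -0.65 (adjusted p = 0.0058). The H3K27ac differences were not tested, and read totals behind them are not known.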

Other observations

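The start-site H3K27ac of the other CatSper complex genes, beyond the 8 described above, was as follows. At *Als2cr11* (*C2cd6*), fold enrichment was 37.5 and 41.1 in PS and 8.54 and 6.39 in RS, while its RNA in the dKO was 153 and 141.4 RPKM in PS and 168 and 158 RPKM in RS. At *Tex40* (*Catsperz*) it was 30.9 and 35.1 in PS and 10.6 and 5.22 in RS. *Trim69* had 17.3 and 21.4 in PS and 6.92 and 5.22 in RS, and *Slco6c1* had 10.3 and 18.1 in PS, 6.51 in RS replicate 1 and no peak within 2 kb in RS replicate 2. At *Catsperd*, which was called lower in RS by RNA, it was 18.9 and 21.4 in PS and 14.2 and 11.03 in RS. At these 5 genes both PS values were above both RS values. Both PS levels were above both RS levels at 54.0% of all genes with a peak. The reverse was seen at 13.6% of all genes with a peak, and at 37.5% of those called higher in RS by RNA. *Efcab9* and *Lrrc52*, which were called higher in RS, had the reverse arrangement, at 6.17 and 6.58 in PS against 18.7 and 12.2 in RS for *Efcab9* and at 6.17 and 6.03 against 17.9 and 15.7 for *Lrrc52*. These genes were singled out after their values were seen, and no test was made.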
